A study of Homo sapiens with 6 samples.

Results

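A set of 10 enzymes that salvage pyrimidines and handle fluoropyrimidine drugs, CDA, DCTD, DCK, TK1, UCK2, UMPS, UPP1, TYMP, DPYD and TYMS, were read in SNU638 cells with and without a LAP2β expression vector. All probes annotated to 1 gene symbol, current or earlier, that equals 1 of these 10 names were taken, which gave 17 of the 29377 probes. The genes were chosen from measured values of the same comparison, so their differences between the groups are given as a description, without p-values, and counts of them past a threshold are no evidence about them. Of the 17 probes, 13 passed the filter on dim probes, and they covered 9 of the 10 genes. DPYD did not pass. Over the whole array 9905 genes were measured this way.

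Cells obtain pyrimidine nucleotides either by building the ring anew or by salvaging nucleosides and bases. In salvage, phosphorylases exchange a base for a sugar, kinases add the phosphate, and deaminases turn cytosine compounds into uracil compounds. The same enzymes activate or destroy fluorinated and cytidine-like drugs. Fluorouracil and its oral prodrug capecitabine, in wide use against gastric cancer, are converted to nucleotides that block thymidylate synthase.

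SNU638 cells derive from a human gastric carcinoma. RNA of 3 mock samples and 3 LAP2β samples was hybridized to Illumina HT-12 v4 bead chips, with 1 array for each sample. To make the LAP2β line, cells grown in RPMI1640 with serum were transfected with pCMV-SPORT6-LAP2β together with pIRES-Neo, which carries the resistance to G418, and were selected with that drug. The mock line carries the vector without the LAP2β insert and was prepared in parallel. Which selected line was arrayed is not given in the sources used here. Nothing in the labels says that the 3 samples of a group were separate cultures, so the spread between them may be technical.

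The check of the targeted gene comes first. TMPO, which encodes LAP2β and the other LAP2 isoforms, had 1 kept probe of 3. Its log2 signal was 9.61, 9.74 and 10.02 on the mock arrays and 9.62, 9.86 and 9.79 on the arrays labelled LAP2β. The difference was -0.03 (SE 0.12, adjusted p = 0.943 from limma), and the other 2 probes were above background on 0 arrays. The labelled overexpression was therefore not visible at this probe. Whether the probes match the part of the transcript that the vector carries was not tested. The probe values therefore cannot show whether LAP2β itself was raised. With primers specific for LAP2β, the paper reported a higher mRNA level in SNU638 cells transfected with LAP2β than with the control vector. Every direction below is that of the arrays labelled LAP2β, called LAP2β arrays, against the mock arrays.

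The arrays were alike in the share of probes above background and in the median signal over all probes. Between 44.1% and 46.6% of the probes were above background on each array, and the median signal before normalization ranged from 189.5 to 199.9. Over the kept probes alone the LAP2β arrays were lower before normalization, with a median log2 difference of -0.14. Of 8 markers of gastric epithelial cells, 6 were above background on all 6 arrays, and CLDN18 and TFF1 on 0. Among the 6, differences ranged from -0.17 for EPCAM to 0.74 for the cadherin CDH1 (adjusted p = 0.0579 from limma), the keratin KRT8 had 0.42 (adjusted p = 0.126), and 0 of the 6 passed the test. Their part in the enzymes' signals was not tested. Of 7 markers of blood, stromal and muscle cells with a probe, 6 were above background on 0 arrays. The exception was VIM, which cultured cancer cells can also express, with a difference of 0.12 (adjusted p = 0.703).

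Promoter sequence is shown for 3 of the enzymes with a single annotated start. CDA was the one measured enzyme with a clearly higher signal, DCK was the other one whose groups did not overlap, and TYMS is the target of the fluoropyrimidines. Each line gives the 250 bases before the start in RefSeq, GRCh38.p14, written 5′ to 3′ on the strand of the gene. A set of 5 motifs was searched on both strands, namely the TATA box (TATAAA), the CCAAT box (CCAAT), the GC box (GGGCGG), E2F letters (TTTCCCGC, TTTCGCGC, TTTGCCGC or TTTGGCGC) and interferon response letters (GAAA, then any 2 bases, then GAAA). Capitals mark a match, which may lie on the other strand.
CDA, chr1:20588847-20589096, plus strand: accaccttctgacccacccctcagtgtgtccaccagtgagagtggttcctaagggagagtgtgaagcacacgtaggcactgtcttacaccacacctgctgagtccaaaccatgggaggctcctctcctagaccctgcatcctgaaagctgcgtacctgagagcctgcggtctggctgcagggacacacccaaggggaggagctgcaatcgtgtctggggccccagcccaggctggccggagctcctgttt
DCK, chr4:70993399-70993648, plus strand: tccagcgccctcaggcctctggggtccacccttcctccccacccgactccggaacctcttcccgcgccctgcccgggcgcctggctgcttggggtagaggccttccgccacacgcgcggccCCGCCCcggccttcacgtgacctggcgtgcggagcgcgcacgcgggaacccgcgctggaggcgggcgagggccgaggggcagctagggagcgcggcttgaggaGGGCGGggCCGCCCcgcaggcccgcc
TYMS, chr18:657403-657652, plus strand: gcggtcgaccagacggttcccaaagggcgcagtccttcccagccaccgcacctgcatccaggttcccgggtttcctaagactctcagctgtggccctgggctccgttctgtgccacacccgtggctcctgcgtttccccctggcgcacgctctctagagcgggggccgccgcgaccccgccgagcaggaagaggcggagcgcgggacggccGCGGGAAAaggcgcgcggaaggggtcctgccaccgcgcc

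The CDA window held none of the 5 motifs and its GC content was 60.4%. The DCK window was 78.0% GC and held 3 GC boxes, the nearest lying 18 to 13 bases before the start. The TYMS window was 71.2% GC and held 1 match to the E2F letters, 39 to 32 bases before the start. No printed match overlapped another. Among the 35116 RefSeq promoters of this length, the median GC content was 58.0%. A TATA box was found in 10.7% of them, a CCAAT box in 32%, a GC box in 42.6%, the E2F letters in 2.79% and the interferon response letters in 3.02%. All 10 enzymes were matched, with 16 starts. The interferon response letters were in the window of none of these starts, and a TATA box was found only at 1 of the starts of TK1. A match of letters says nothing about binding, and its absence says nothing about the factor.

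The deaminases are described first. CDA, cytidine deaminase, turns cytidine and deoxycytidine into uridine and deoxyuridine, activates a capecitabine intermediate and inactivates gemcitabine and cytarabine. Its log2 normalized signal was 9.97, 10.12 and 10.19 on mock arrays 1, 2 and 3. On LAP2β arrays 1, 2 and 3 it was 11.20, 11.41 and 11.37. The lowest LAP2β array was above the highest mock array, and the gap between the groups was wider than the spread within either. The group means were 10.09 ± 0.11 (SD, n = 3) and 11.33 ± 0.12 (SD, n = 3), a difference of 1.24 on the log2 scale (SE 0.10, 95% interval 1.02 to 1.45). This corresponds to a 2.36-fold higher signal, with an interval of 2.03-fold to 2.74-fold.

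The difference in CDA was already present in the linear signals before normalization. These were 1032, 1265 and 1176 on the mock arrays and 2166, 2536 and 2579 on the LAP2β arrays. Between arrays of the same number the normalized log2 difference was 1.23, 1.30 and 1.19, so the 3 pairs were close to each other. By size of difference, CDA ranked 26 among the 9905 genes, and 21 when ordered from the highest rise down. CDA was represented by 1 probe, so no further probe of the gene could be set against it. In RNA of a whole culture, more cells with the transcript and more transcript per cell cannot be told apart.

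**Figure D1:**
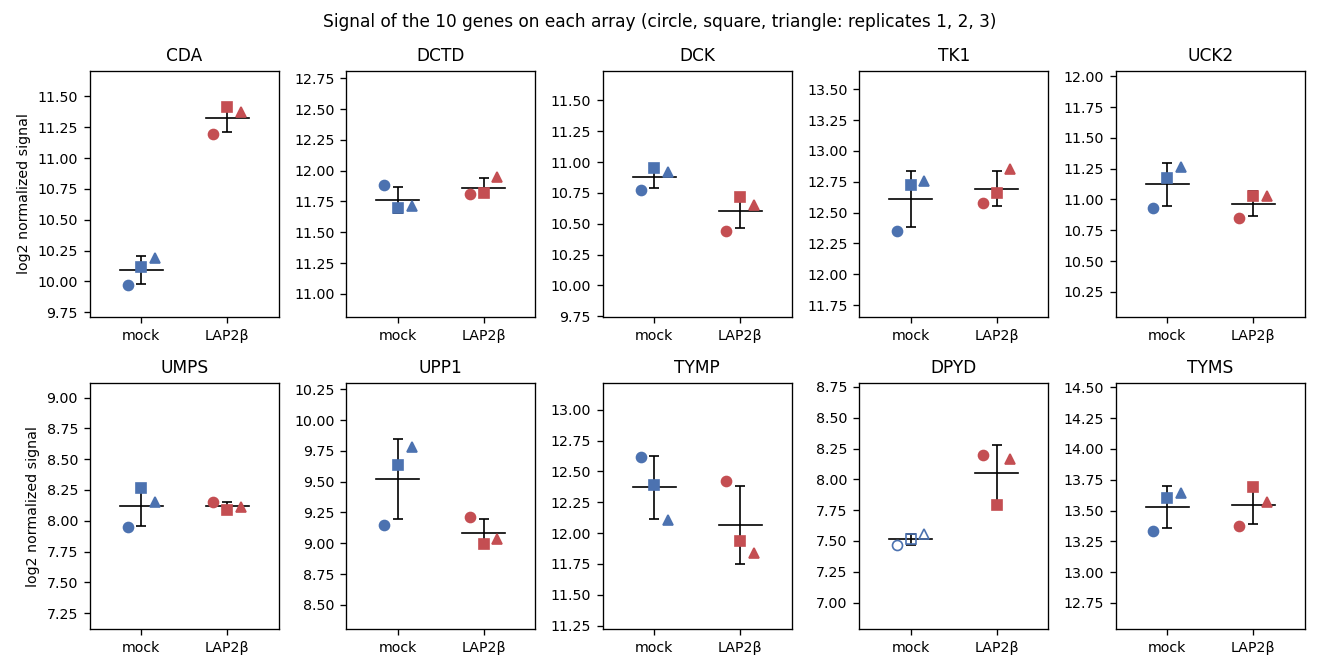
Log2 normalized signal of the 10 enzymes on each of 3 mock and 3 LAP2β arrays, 1 panel for each gene; the circle, square and triangle are replicates 1, 2 and 3, the horizontal line is the group mean and the bar its SD, and open symbols mark DPYD signals of a group with 0 arrays above background. All panels span the same range of 2 log2 units; the CDA groups lie 1.24 apart, and the groups of most other enzymes overlap.

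DCTD, dCMP deaminase, works a step further on, converting dCMP to dUMP, the substrate of thymidylate synthase. Its log2 signal was 11.88, 11.69 and 11.71 on the mock arrays and 11.81, 11.82 and 11.95 on the LAP2β arrays. The groups overlapped. The difference was 0.10 (SE 0.09, 95% interval -0.11 to 0.31), and a second probe gave 0.10 as well. With median scaling, and with no normalization between arrays, the DCTD difference was -0.06 and -0.07. Both of these settings moved the median of all kept probes, to -0.13 and -0.14, so that DCTD remained close to the bulk of the genes.

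The kinases of salvage had smaller differences than CDA. By size, the DCK difference exceeded that of 90.8% of the measured genes, the UCK2 difference 70.9% and the TK1 difference 44.0%. DCK, deoxycytidine kinase, phosphorylates deoxycytidine and is the activating enzyme of gemcitabine and cytarabine. Its log2 signal was 10.77, 10.95 and 10.92 on the mock arrays and 10.44, 10.72 and 10.65 on the LAP2β arrays. Every LAP2β array lay below every mock array, by a narrow margin. The means were 10.88 ± 0.09 and 10.60 ± 0.14 (SD, n = 3 each). The difference was -0.28 (SE 0.10, 95% interval -0.50 to -0.05), a 1.21-fold lower signal. Between arrays of the same number it was -0.33, -0.23 and -0.27. A second DCK probe was above background on 0 arrays and gives no reading.

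UCK2 phosphorylates uridine and cytidine and, with them, fluorouridine. The UCK2 signal, on the log2 scale, was 10.93, 11.18 and 11.27 on the mock arrays and 10.85, 11.02 and 11.03 on the LAP2β arrays. The groups overlapped, although each LAP2β array was below the mock array of the same number. The difference was -0.16 (SE 0.11, 95% interval -0.40 to 0.08).

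TK1, the thymidine kinase of dividing cells, had log2 signals of 12.35, 12.72 and 12.75 on the mock arrays and 12.57, 12.66 and 12.85 on the LAP2β arrays. These groups overlapped over most of their range. The TK1 difference was 0.08 (SE 0.12, 95% interval -0.19 to 0.36), and it took the opposite sign, at -0.09 and -0.10, with median scaling and with no normalization.

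Among the enzymes that join a base to a sugar, UMPS carries out the last steps of pyrimidine synthesis and can convert fluorouracil directly to its nucleotide. On the log2 scale UMPS was read at 7.95, 8.26 and 8.15 on the mock arrays and 8.15, 8.08 and 8.11 on the LAP2β arrays. The LAP2β values fell inside the mock range. The difference was -0.0038 (SE 0.10, 95% interval -0.22 to 0.22), and the interval of the fold ran from 0.857 to 1.16.

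UPP1, uridine phosphorylase, splits uridine reversibly into uracil and ribose phosphate and also acts on fluorouracil. The UPP1 signal, in log2 units, was 9.15, 9.63 and 9.78 on the mock arrays and 9.21, 9.00 and 9.03 on the LAP2β arrays. Mock replicate 1 stood with the LAP2β arrays, and the other mock arrays stood above them. The means were 9.52 ± 0.33 and 9.08 ± 0.12 (SD, n = 3 each). The difference was -0.44 (SE 0.15, 95% interval -0.76 to -0.12), a 1.36-fold lower signal. Between same-numbered arrays it was 0.06, -0.64 and -0.75, and without mock replicate 1 it was -0.63. The other 2 UPP1 probes were above background on 0 arrays.

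TYMP, thymidine phosphorylase, releases the base from thymidine and performs the last step of capecitabine activation. Its brightest probe had log2 signals of 12.62, 12.39 and 12.11 on the mock arrays and 12.42, 11.93 and 11.84 on the LAP2β arrays. The groups overlapped, replicate 1 was the highest array in both, and each LAP2β array was below the mock array of its number. The difference was -0.31 (SE 0.16, 95% interval -0.67 to 0.05), and -0.20, -0.45 and -0.27 between arrays of the same number. With the replicate number as a block, the SE of the TYMP difference was 0.08. All of the other 3 TYMP probes were kept, and their differences were -0.20, -0.25 and -0.18. In the reference annotation TYMP overlaps SCO2, a copper chaperone of the respiratory chain, and the table lists TYMP among the other names of SCO2. How far SCO2 transcripts contribute to the TYMP signals was not tested.

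DPYD, dihydropyrimidine dehydrogenase, is the first and limiting enzyme of uracil breakdown and removes most of a fluorouracil dose in the body. Its 1 probe was dim. The log2 signal was 7.47, 7.52 and 7.56 on the mock arrays, all not well above background. It was 8.20, 7.79 and 8.16 on the LAP2β arrays, of which 2 were above background. In linear signal before normalization these were 175.2, 188.4 and 187.1 against 281.0, 218.6 and 281.0. The LAP2β arrays lay above the mock arrays. Because mock gives only a bound, each mock array was given the larger of its own value and the lowest signal above background. The mean of the LAP2β arrays was 1.24-fold above that level. This mean includes LAP2β replicate 2, which was not above background, and no spread was computed for the value. DPYD was above background on 1 array fewer than the filter required, and so it is not among the 9 enzymes counted.

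TYMS, thymidylate synthase, makes dTMP from dUMP and is the enzyme that the fluorouracil nucleotide blocks. The log2 signal of TYMS was 13.33, 13.60 and 13.65 on the mock arrays and 13.38, 13.69 and 13.57 on the LAP2β arrays. The groups overlapped nearly completely. The difference was 0.02 (SE 0.11, 95% interval -0.23 to 0.27), and -0.12 and -0.14 with median scaling and with no normalization. TYMS overlaps ENOSF1 and the antisense gene TYMSOS in the annotation, and TYMSOS, read by its own probe, had a difference of -0.13 (adjusted p = 0.769 from limma).

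**Figure D2:**
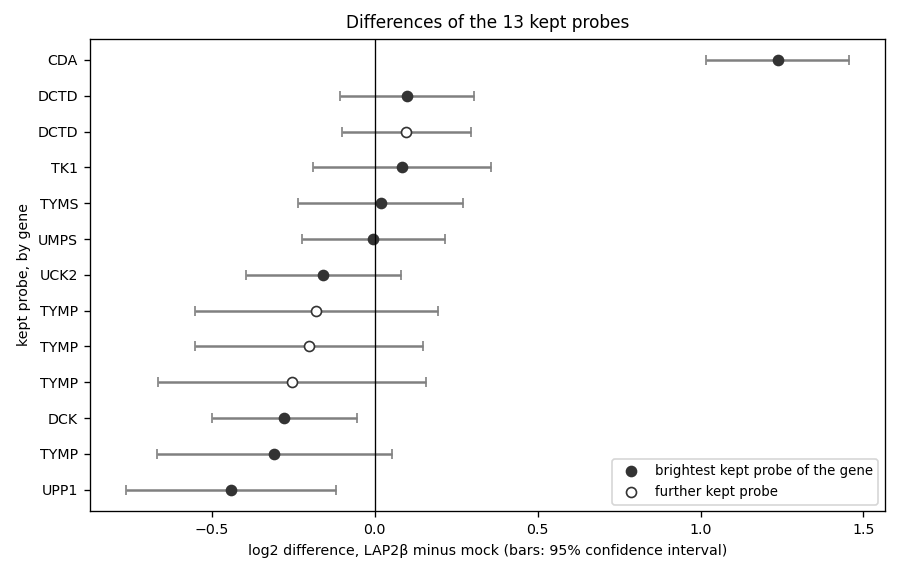
Log2 difference, LAP2β minus mock, of the 13 kept probes of 9 enzymes, with the 95% confidence interval from the fit; filled points are the brightest kept probe of each gene and open points further kept probes. CDA stands apart at 1.24, the other probes lie between -0.44 and 0.10, and the 4 TYMP probes are all below 0.

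As a description, 1 of the 9 measured enzymes, CDA, was among the genes with an adjusted p under 0.05 in the fit across all kept probes. Over all genes measured, 1.79% passed in either direction, 1.17% as higher and 0.616% as lower. In the fit with the replicate number as a block, CDA was again the 1 enzyme past the threshold, beside 6.43% of all genes. The groups did not overlap for 2 of the 9, CDA and DCK, while they did not overlap for 19.8% of all genes. Nothing is read from these counts, since the enzymes were picked with this contrast known. The median difference of the 9 was -0.0038, with 4 above 0, and the median of all genes was -0.0068.

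Replicate number ran through the kept probes as a whole. Deviations of the replicate 1 arrays from their groups had a correlation of 0.544 over these probes. Replicate 1 was below its group mean in both groups for 5 of the 9 enzymes, CDA, DCK, TK1, UCK2 and TYMS, and above it in both for 1, TYMP. The share of all genes with either pattern was not computed, so nothing is read from these counts. A list of 13 S phase and proliferation genes (MCM2 to MCM7, PCNA, cyclins E and A2, E2F1, MKI67 and TOP2A) followed the pattern of those 5 enzymes. Its median log2 signal was 11.81, 12.08 and 12.16 on the mock arrays and 11.70, 11.94 and 12.09 on the LAP2β arrays. Replicate 1 was the lowest array of each group. None of the 13 passed the test between the groups by limma, 3 of them had an unadjusted p under 0.05, and their median difference was -0.11. With the replicate block 3 passed as lower.

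A list of interferon-stimulated genes, 10 of them measured, ran the other way across the replicates. Its median log2 signal was 10.71, 10.04 and 9.88 on the mock arrays and 12.29, 11.19 and 10.87 on the LAP2β arrays. Replicate 1 was the highest array of each group, and every LAP2β array was above every mock array. IFIT2 and IFIT3, antiviral effectors, passed the test as higher, all 10 differences were above 0, and their median was 0.94. With the replicate block 8 passed as higher. TYMP, which interferon is known to induce in some cells, shared the order of the replicates with this list and not the direction between the groups. What the proliferation and interferon genes have to do with the enzymes' signals was not tested.

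**Figure D3:**
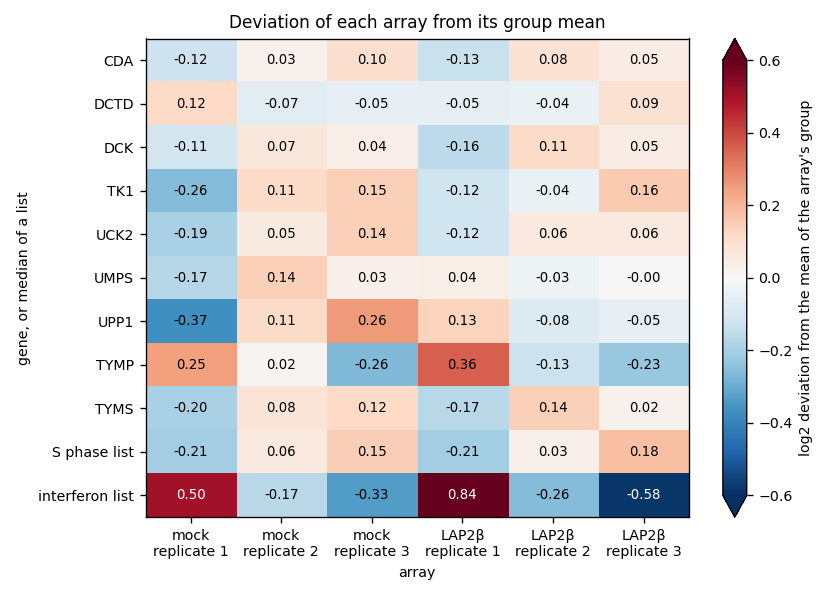
Deviation of each array from the mean of its own group, in log2 units, for the 9 measured enzymes and for the medians of the S phase list and the interferon list; the columns are the 6 arrays, red is above and blue below the group mean. Both replicate 1 columns are below the mean for CDA, DCK, TK1, UCK2, TYMS and the S phase list, and above it for TYMP and the interferon list, which reached 0.84 on LAP2β replicate 1, beyond the end of the colour scale at 0.6.

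The rest of the pathway was read from 9 lists of genes. Outside the 10 enzymes they held 87 genes, of which 80 had a probe and 58 were measured. By limma, 0 of the 58 rose, 1 fell and 57 did not pass the test; 8 had an unadjusted p under 0.05. Their median absolute difference was 0.08, against 0.10 over all genes. With the replicate block, 3 passed as higher and 2 as lower. Over all genes measured, 1.79% passed without the block and 6.43% with it.

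The gene that fell was NT5E, the CD73 ectonucleotidase, which removes the phosphate from nucleoside monophosphates outside the cell and is best known for making adenosine. Its log2 signal was 10.85, 11.08 and 11.11 on the mock arrays and 10.11, 10.17 and 10.38 on the LAP2β arrays. The groups did not overlap. The means were 11.01 ± 0.14 and 10.22 ± 0.14 (SD, n = 3 each), a difference of -0.79 (SE 0.11), or a 1.73-fold lower signal, with an adjusted p of 0.00311 from limma. It was the 1 gene past the threshold among the 6 measured of 11 genes of pyrimidine breakdown and the nucleotidases, and the median of the 6 was -0.02. The cytosolic nucleotidases NT5C, NT5C2, NT5C3A and NT5C3B, which also remove phosphate from nucleotides, had differences of 0.13, 0.09, -0.08 and 0.02. DPYS and UPB1, the enzymes after DPYD in uracil breakdown, were not measured.

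In de novo synthesis, 0 of the 5 genes passed the test and their median difference was -0.05. CAD, which starts the pathway, had the smallest adjusted p (-0.15, adjusted p = 0.687 from limma). Among the kinases, phosphorylases and base salvage genes, 13 of 16 were measured, 0 passed, and the median was 0.03. NME3, a nucleoside diphosphate kinase, had the smallest adjusted p (0.21, adjusted p = 0.454). Among the genes of deoxynucleotide supply, 6 of 8 were measured, 0 passed, and ITPA, which clears inosine triphosphate, came closest (0.25, adjusted p = 0.373). RRM1 and RRM2, the subunits of ribonucleotide reductase, had differences of -0.05 and 0.04, and DUT, which makes dUMP from dUTP, -0.07.

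Of 16 genes of the folate cycle, which supplies thymidylate synthase with its cofactor, 12 were measured and 0 passed. GGH, which trims the glutamate tail of folates, had the smallest adjusted p (-0.34, adjusted p = 0.152 from limma). FOLR1, a folate receptor, was 0.30 higher and passed with the replicate block alone (adjusted p = 0.0434 from limma). It was dim, at 7.89, 7.36 and 7.64 on the mock arrays and 8.18, 7.65 and 7.96 on the LAP2β arrays. Mock replicates 2 and 3 and LAP2β replicate 2 lay below the lowest signal above background of their arrays (7.70, 7.78 and 7.79). Among 13 nucleoside transporters and drug exporters, 7 were measured and 0 passed, with a median of 0.17. ABCC11, an exporter that carries fluorouracil nucleotides, had the smallest adjusted p (0.28, adjusted p = 0.267 from limma). ABCC11 was dim too, and on mock replicate 2 its log2 signal of 7.64 was below the lowest signal above background. SLC29A3, an equilibrative nucleoside transporter of intracellular membranes, was 0.39 higher and passed with the block alone (adjusted p = 0.0145).

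None of the 3 measured uracil glycosylases passed, and UNG, which cuts uracil from DNA, had the smallest adjusted p (-0.04, adjusted p = 0.893 from limma). In the cytidine deaminase family, relatives of CDA that mostly act on DNA or RNA, 5 of 13 genes were measured and 0 passed. APOBEC3B, which deaminates cytosine in DNA, had the smallest adjusted p. Its difference was -0.54 (SE 0.15, adjusted p = 0.128), and with the block its adjusted p was 0.00450. APOBEC3C, APOBEC3D and APOBEC3F had differences of -0.20, 0.14 and 0.12. Of the 2 carboxylesterases that open capecitabine, CES2 was 0.34 higher (adjusted p = 0.143, and 0.0452 with the block) and CES1 had a difference of -0.04 (adjusted p = 0.917).

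**Figure D4:**
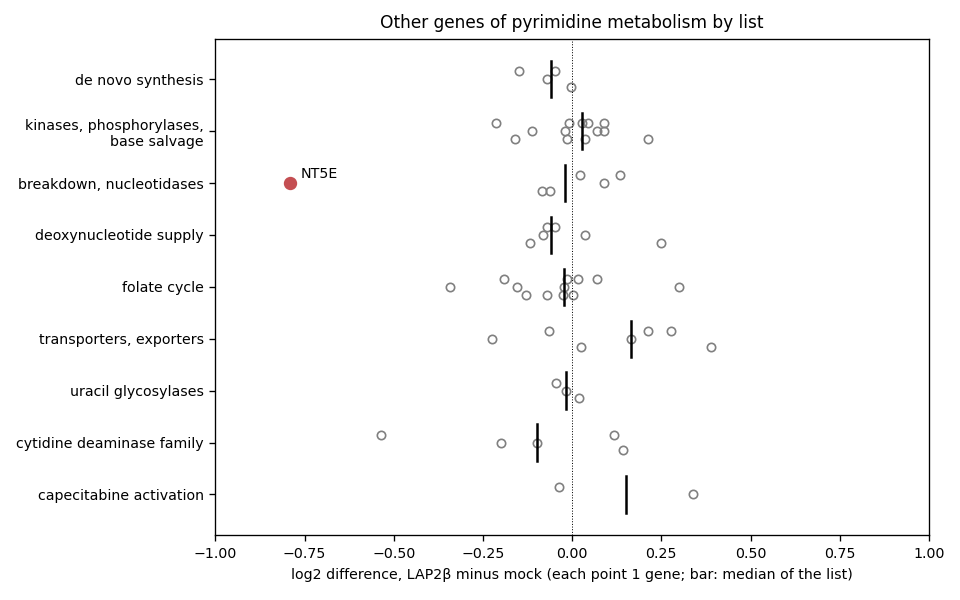
Log2 difference, LAP2β minus mock, of the 58 measured genes of pyrimidine metabolism outside the 10 enzymes, 1 row for each of 9 lists. Each point is a gene, and the filled point passed an adjusted p of 0.05. The vertical bar is the median of the genes shown, so that of de novo synthesis leaves out UMPS. NT5E, at -0.79, is the 1 gene past the threshold, and the median of the transporters (0.17) is the farthest from 0.

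Along the capecitabine route, the enzymes are given in the order in which they act. The carboxylesterases CES2 and CES1 had differences of 0.34 and -0.04, CDA one of 1.24 and TYMP one of -0.31. Neither carboxylesterase passed the test, and the CES2 difference was 0.18 with median scaling and 0.16 with no normalization. TYMP was -0.46 and -0.48 under these settings, and ranged from -0.18 without mock replicate 1 to -0.49 without LAP2β replicate 1. The TYMP interval was -0.67 to 0.05 in the fit without the replicate block, and the SE was 0.16 without the block and 0.08 with it. After fluorouracil is formed, UMPS, UPP1 and UCK2, which lead to its ribonucleotide, had differences of -0.0038, -0.44 and -0.16, and the target TYMS one of 0.02. For gemcitabine and cytarabine, the activating kinase DCK had a difference of -0.28 and the inactivating deaminase CDA one of 1.24. These are RNA signals, and no enzyme activity or drug response was measured on these arrays.

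Scaling moved the differences of all 9 enzymes downward. CDA ranged from 1.07 with no normalization to 1.35 with background correction by neqc, which is 2.10-fold to 2.54-fold. DCK was -0.44 and -0.45 and UPP1 -0.57 and -0.59 with median scaling and with no normalization. The median of all kept probes was itself lower under these 2 settings, by the amounts given above.

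**Figure D5:**
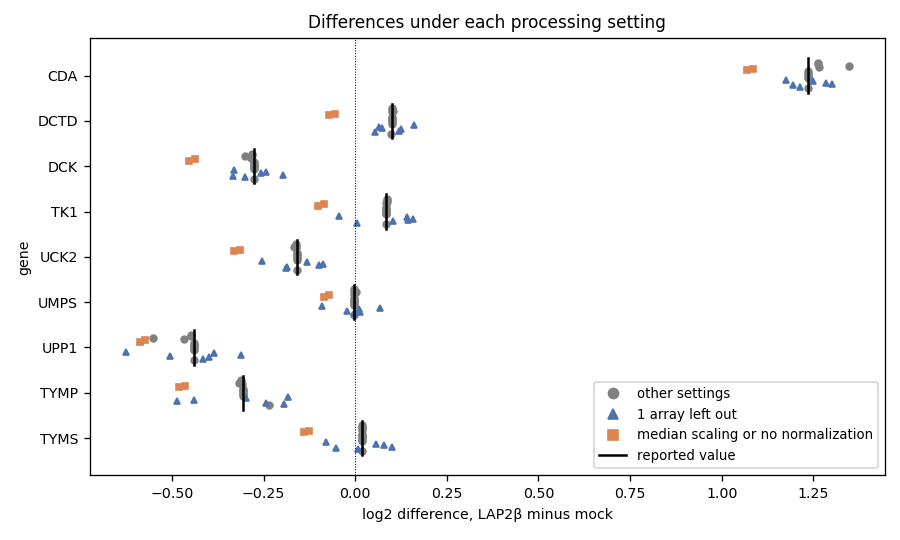
Log2 difference, LAP2β minus mock, of the 9 measured enzymes under each processing setting; the black bar is the reported value, squares are median scaling and no normalization between arrays, triangles leave out 1 array each, and circles are the other settings. CDA stayed between 1.07 and 1.35, DCK, UPP1, UCK2 and TYMP were below 0 throughout, and DCTD, TK1, TYMS and UMPS lay on both sides of 0.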

How the data were processed

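RNA from 3 mock and 3 LAP2β samples of SNU638 cells was labelled, hybridized and scanned by the authors, who processed the arrays with BeadStudio and quantile normalized the signals. The deposited intensity values, before and after normalization, are linear, and detection p-values were deposited beside them. Whether background was subtracted is not given in the sources used here. Of the columns of detection p-values, 2 carried a name of no sample and were left aside, so mock replicate 3 had none of its own. Its probes were given the median of the detection p-values that probes of equal signal rank had on the remaining 5 arrays, a choice made after the data were seen.

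Signals before normalization were quantile normalized and brought to the log2 scale. The filter asked for detection p-values below 0.01 on 3 or more arrays, which 13323 of 29377 probes met. These were fitted with lmFit and eBayes (limma 3.58.1, R 4.3.3). Adjusted p-values are Benjamini-Hochberg values over all kept probes, with a threshold of 0.05. A gene was read from its kept probe with the highest mean. Of all probes, 27988 had 1 gene symbol and 1389 several or none, and 27819 were matched by gene ID to RefSeq (GRCh38.p14). The enzymes, the gene lists and the tests were chosen with earlier results of these data known. Named are all 10 enzymes and, of each list, the genes past the threshold or else the one with the smallest adjusted p; further genes were chosen after their values were seen. The fit was tested on simulated data.

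A mock array and the LAP2β array of the same number tended to deviate alike from their groups. Their correlations over the kept probes were 0.544, 0.228 and 0.368. The numbers of the labels were therefore taken to pair the samples in the fit with the replicate block. Unless the block is named, the SEs, intervals and adjusted p-values are from the fit without this pairing. What a number shares is not stated. Alternatives tried were the deposited normalized table, the series matrix (the same values), neqc (offset 16) or normexp (offset 50), median scaling, no normalization, other detection filters, eBayes with trend and robust options, the replicate block, the methods' t-test, the mean over a gene's probes and each array left out in turn. A slide block was not fitted because the slides are not given in the sources used here. The number of arrays limits the precision.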

Additional observations from a re-analysis of the deposited data

How the results depend on the processing

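Of the 13323 probes, 220 passed the threshold. The count was 145 with neqc, 537 with median scaling, 521 with no normalization, 821 with the replicate block, 1616 by the methods' t-test at an unadjusted p and 1 after Benjamini-Hochberg adjustment, and 99 to 279 with 1 array left out (99 without mock replicate 2, 126 without LAP2β replicate 2). The count was 252 of 29377 probes with no filter and 233 of 14884 at a detection p-value under 0.05. Without mock replicate 1 it was 279. Of the 220 calls 66.4% were higher, against 21.2% with median scaling and 20.9% with no normalization. Among the enzymes, counted as a description since they were chosen on this contrast, 1 passed. The count was 3 with median scaling (CDA, UPP1 and DCK), 2 with no normalization (CDA and UPP1), 2 with no filter and 2 at a detection p-value under 0.05 (CDA and DPYD in both), and 2 (CDA and DCK) and 0 by the methods' t-test before and after adjustment. It was 1 to 2 with 1 array left out, UPP1 being added without mock replicate 1. DPYD was above background on 0 mock arrays and 2 LAP2β arrays, so its call with a looser filter is no evidence about it. Nothing is read from these counts of enzymes, since the count over all probes moved with the setting as well. Of the other pathway genes 1 passed. The count was 3 with median scaling and 3 with no normalization (NT5E, GGH and APOBEC3B in both), 5 with the replicate block, 7 and 0 by the methods' t-test before and after adjustment, and 1 to 2 with 1 array left out (APOBEC3B added without LAP2β replicate 1). NT5E lost its call by the adjusted t-test alone; its difference ranged from -0.97 to -0.74 and its adjusted p up to 0.159. Pairing by the replicate block left the count of enzymes at 1. The 3 arrays a group limit what can be seen of changes the size of those of DCK, UPP1 and TYMP.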
